A study of Mus musculus with 12 samples.

Results

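The genes described here are 42 genes of the lysosome, the acidic organelle in which cells break down protein, lipid and carbohydrate, chosen by name. Of the 42 genes, 41 were listed in at least 1 of the 2 comparisons of the deposited table, which holds 13957 gene symbols in all. Above the lesion 41 were listed, below it 39, and 39 at both sites. CTSD, the aspartic protease cathepsin D, was listed at neither site, and GAA and SGSH only above. RNA was sequenced from spinal cord of male mice expressing human ApoE4 that received a contusion at thoracic level 9 at the age of 4 months, and tissue was taken 14 days later just above (rostral to) or just below (caudal to) the epicenter. All 4 groups carried ApoE4 and the contusion, and they differed in synj1 and in site: the groups labelled homozygous (synj1+/+, 2 normal alleles) and heterozygous (synj1+/-, 1 inactive allele) were each sampled above and below, with 3 libraries per group. The inactive allele is carried by the whole animal, not by 1 cell type. Uninjured cord and ApoE3 cord were not analysed here.

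Each group has a single deposited value per gene that pools its 3 libraries, which leaves no replicate error, and no test was made. Every difference below is a description of pooled values, and its size relative to the variation between mice was not assessed here. Library depths are not given by these values either. Levels are in FPKM (fragments scaled to transcript length and library size), which can be compared between genes because they are per length. Differences are log2 ratios of FPKM plus 1 in the (synj1+/-)-labelled group over the (synj1+/+)-labelled group, and a gene is called lower or higher where the ratio is at least 1.2-fold.

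Lysosomal proteins fall into a few kinds. Soluble hydrolases, among them the cathepsins (proteases), glycosidases, sulfatases and lipid hydrolases, carry out the digestion. Heavily glycosylated membrane proteins line the organelle, and a proton pump, the V-ATPase, acidifies it. The transcription factors TFEB and TFE3 bind a palindromic E-box with the core CACGTG in promoters of many of these genes. In the injured cord, microglia and infiltrating macrophages take up myelin and cell debris and have a large lysosomal compartment, while neurons, astrocytes and oligodendrocytes express most of the same genes.

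Promoters of the members were searched for that E-box. Because the motif is already known from promoters of many of these genes, its share among them is a description and no independent support. RefSeq promoter entries of GRCm38.p6, from 250 bases before to 50 bases after a start site, were found for 38 of the 42 members, and CTSB, CTSH, ASAH1 and ATP6V0D2 had none. The 6-base core CACGTG, which reads the same on both strands, was present for 15 of the 38 members (39.5%) and for 8.09% of the 27025 genes with an entry. The longer palindrome TCACGTGA, which contains the core, was present for 6 members (15.8%) against 1.12% of genes, and its form extended by G in front and C behind for 1 member (2.63%, CLN3) against 0.370%. The stretches below show the core in capitals on the strand of the gene, first for LAMP1, with 4 copies within 73 bases, and GLA, with 2, and then around 1 copy for 8 other members. The 100 bases before the start of CTSS, a cathepsin typical of macrophages, are shown for contrast and hold no copy.
LAMP1 (chr8:13159088-13159160, plus strand): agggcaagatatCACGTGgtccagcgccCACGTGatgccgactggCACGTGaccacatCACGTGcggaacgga
GLA (chrX:134601182-134601244, minus strand): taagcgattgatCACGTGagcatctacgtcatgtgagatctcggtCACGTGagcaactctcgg
CLN3 (chr7:126583340-126583369, minus strand): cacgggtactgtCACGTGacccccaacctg
MCOLN1 (chr8:3500462-3500491, plus strand): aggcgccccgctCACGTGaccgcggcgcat
CTSA (chr2:164833749-164833772, plus strand): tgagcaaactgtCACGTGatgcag
CTSF (chr19:4855074-4855103, plus strand): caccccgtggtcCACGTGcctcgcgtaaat
CTSL (chr13:64370739-64370768, minus strand): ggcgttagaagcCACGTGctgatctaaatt
LGMN (chr12:102439124-102439153, minus strand): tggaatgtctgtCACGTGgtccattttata
NAGLU (chr11:101070009-101070038, plus strand): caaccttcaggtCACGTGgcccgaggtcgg
GLB1 (chr9:114401018-114401047, plus strand): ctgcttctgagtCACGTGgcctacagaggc
CTSS (chr3:95526686-95526785, plus strand): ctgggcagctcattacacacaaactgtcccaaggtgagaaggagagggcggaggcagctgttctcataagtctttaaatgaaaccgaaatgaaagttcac
The stretches of LAMP1, GLA, CTSF, GLB1 and CTSS lie before the gene in the GENCODE annotation, that of NAGLU spans its start, those of CTSL and LGMN are intronic, and those of CLN3, MCOLN1 and CTSA lie in exons of annotated transcripts.

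The labels were checked first. SYNJ1 (chromosome 16 from 90936092 to 91011308 of GRCm38) had 1904 FPKM in the (synj1+/+)-labelled group and 2403 in the (synj1+/-)-labelled group above the lesion, and 1846 and 2592 below. Its direction is thus opposite to the label at both sites, and each direction given here rests on the labels. By RT-qPCR of cord just above the lesion, the study reported less synj1 mRNA in ApoE4 synj1+/- than in ApoE4 synj1+/+ mice. That measure is not among the values used here. If the labels were exchanged, each gene called lower here, members and all genes alike, would be called higher and the reverse, which was not tested. The 42 members lie on 16 chromosomes, none of them on chromosome 16 with SYNJ1. The tissue was checked with marker lists: neuron markers summed to between 8776 and 12034 FPKM, oligodendrocyte markers to between 10365 and 11691 and astrocyte markers to between 14039 and 19265.5 in the 4 groups. The oligodendrocyte and astrocyte sums rest mostly on 1 gene each, MOBP (10915 FPKM) and GFAP (12974 FPKM) in the (synj1+/+)-labelled group above the lesion. Neuron sums cover 10 markers above and 8 below, so they are not comparable between sites. The oligodendrocyte markers MBP, MAG and CNP and the T cell markers CD3E, CD3D and CD3G were not listed.

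Lysosomal genes tended to be lower in the (synj1+/-)-labelled group, and more of them passed the 1.2-fold limit below the lesion than above it. The log2 ratio was below 0 for 31 of 41 members above and 31 of 39 below, beside 6962 of 13647 and 5826 of 12338 of all genes. Above the lesion, 10 of 41 members (24.4%) were lower by 1.2-fold or more, against 10.5% of all 13647 genes listed there, and 1 was higher, against 6.62%. Below the lesion, 21 of 39 members (53.8%) were lower, against 14.9% of 12338 genes, and 0 were higher, against 12.6%. The median log2 ratio of the members was -0.11 above and -0.36 below, beside -0.0039 and 0.014 for all genes. The members were more abundant than most genes, at a median level percentile of 78.1 above and 83.0 below, and among genes of 10 FPKM or more 8.64% were lower and 5.33% higher above, and 12.5% lower and 11.7% higher below. Of the 39 members listed at both sites, 9 were lower at both: CTSB, CTSH, CTSK, CTSZ, GUSB, HEXA, MAN2B1, GRN and LAPTM5. A further 11 were called lower only below the lesion, CLN3 only above it, 17 lay within the limit at both sites, and ATP6V0D2 was higher above and lower below. Nearest to the limit above the lesion were CTSL, not called at 1.198-fold lower, and CTSK, called at 1.206-fold. Below the lesion they were PSAP, not called at 1.18-fold, and GLB1, called at 1.26-fold.

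**Figure D1:**
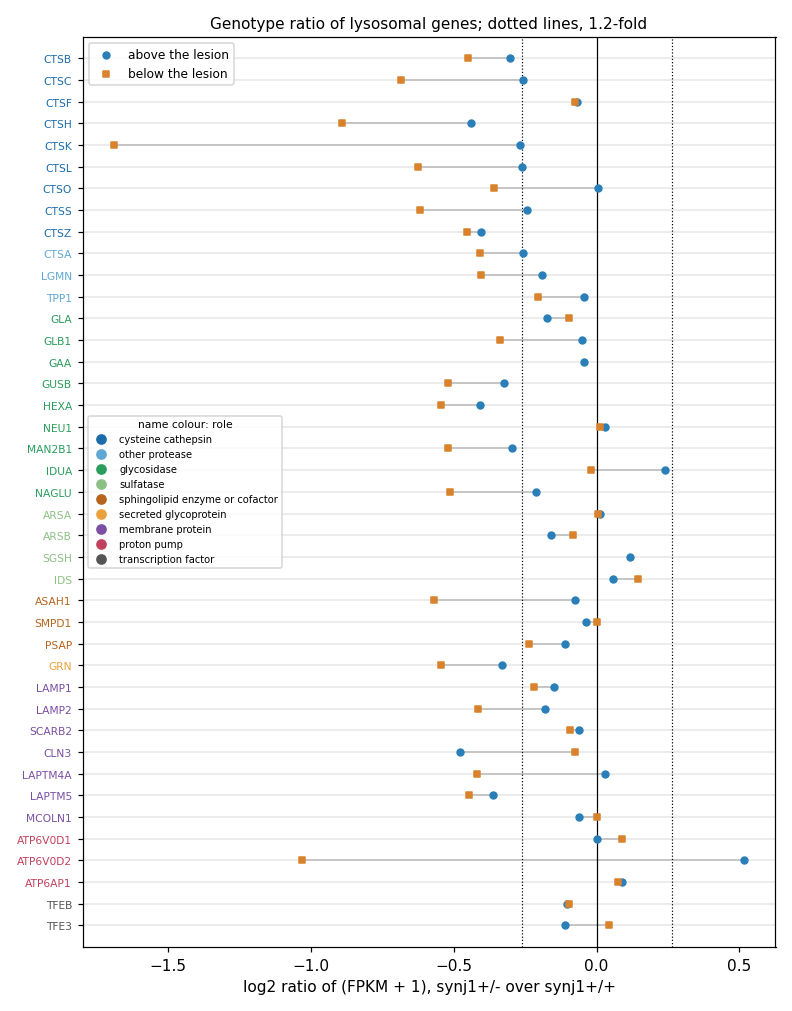
Log2 ratio of FPKM plus 1, (synj1+/-)-labelled group over (synj1+/+)-labelled group, for each lysosomal gene (vertical axis, coloured by role) above (circles) and below the lesion (squares), with the 1.2-fold limit as dotted lines. Many proteases and glycosidases lie to the left, with CTSK at -1.69 and ATP6V0D2 at -1.03 below the lesion, whereas the sulfatases, TFEB, TFE3, ATP6V0D1, ATP6AP1, CTSF and TPP1 lie within the limit at both sites where listed.

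Of the 9 cysteine cathepsins, 4 were lower above the lesion and 8 below, beside 10.5% and 14.9% of all genes. Their median log2 ratios were -0.26 and -0.62. CTSB (chromosome 14 from 63122462 to 63145923), a broadly expressed endopeptidase and exopeptidase, had 655 FPKM in the (synj1+/+)-labelled group and 531 in the (synj1+/-)-labelled group above the lesion, and 838 and 613 below. Its log2 ratios were -0.30 and -0.45, so that the values of the (synj1+/-)-labelled group were lower at both sites. CTSS (chromosome 3 from 95526786 to 95556403), the cathepsin of antigen-presenting cells, was about as abundant as CTSB, with 655 and 554 FPKM above and 971 and 632 below. Its ratio above, -0.24, lay within the limit, and that below was -0.62.

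CTSH, an aminopeptidase, had 95.6 and 70.2 FPKM above the lesion and 167 and 89.4 below, with log2 ratios of -0.44 and -0.89. It had the lowest ratio of the cysteine cathepsins above the lesion. CTSL, an endopeptidase of most cells, had 127 and 106 FPKM above and 192 and 124 below, a log2 ratio of -0.26 and -0.63. CTSC, the dipeptidyl peptidase that activates serine proteases of immune cells, had 41.3 and 34.4 FPKM above and 63.0 and 38.7 below, with ratios of -0.26 and -0.69. Both were called lower below the lesion and lay just within the limit above it. CTSZ, a carboxypeptidase, was lower by a similar amount at both sites, at -0.40 and -0.45, with 163 and 123 FPKM above and 207 and 151 below.

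CTSK (chromosome 3 from 95499256 to 95509362), a collagen-degrading cathepsin known from osteoclasts and also made by fibroblasts, had the log2 ratio farthest from 0 of all members. Below the lesion it had 37.7 FPKM in the (synj1+/+)-labelled group and 11.0 in the (synj1+/-)-labelled group, a log2 ratio of -1.69. Above the lesion it had 11.9 and 9.70 FPKM, a ratio of -0.27, so that 1 of the 4 groups stood out, the (synj1+/+)-labelled group below the lesion. The 7 fibroblast markers moved with it: their summed FPKM below was 442 and 116, their median log2 ratio was -2.81, and 7 of 7 were lower. Above the lesion the sums were 104 and 90.3 and 5 of 7 were lower. The shares of all genes called lower were 14.9% below and 10.5% above. The part of fibroblast RNA in the CTSK value was not tested. CTSO was lower only below (0.0039 and -0.36) at 14.8 to 19.3 FPKM, and CTSF, at 120.0 to 137 FPKM, was within the limit at both sites (-0.068 and -0.076).

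The 3 other proteases listed were CTSA, LGMN and TPP1. CTSA, a serine carboxypeptidase that also stabilizes beta-galactosidase and sialidase, had 281 and 235 FPKM above the lesion and 358 and 269.6 below. Its log2 ratio was -0.26 above, short of the limit, and -0.41 below. LGMN, the asparaginyl endopeptidase that processes other cathepsins, had 124 and 109 FPKM above and 166 and 125 below, with ratios of -0.19 and -0.41. TPP1, a tripeptidyl peptidase lacking in a childhood neuronal ceroid lipofuscinosis, was within the limit at both sites, at -0.043 and -0.21.

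**Figure D2:**
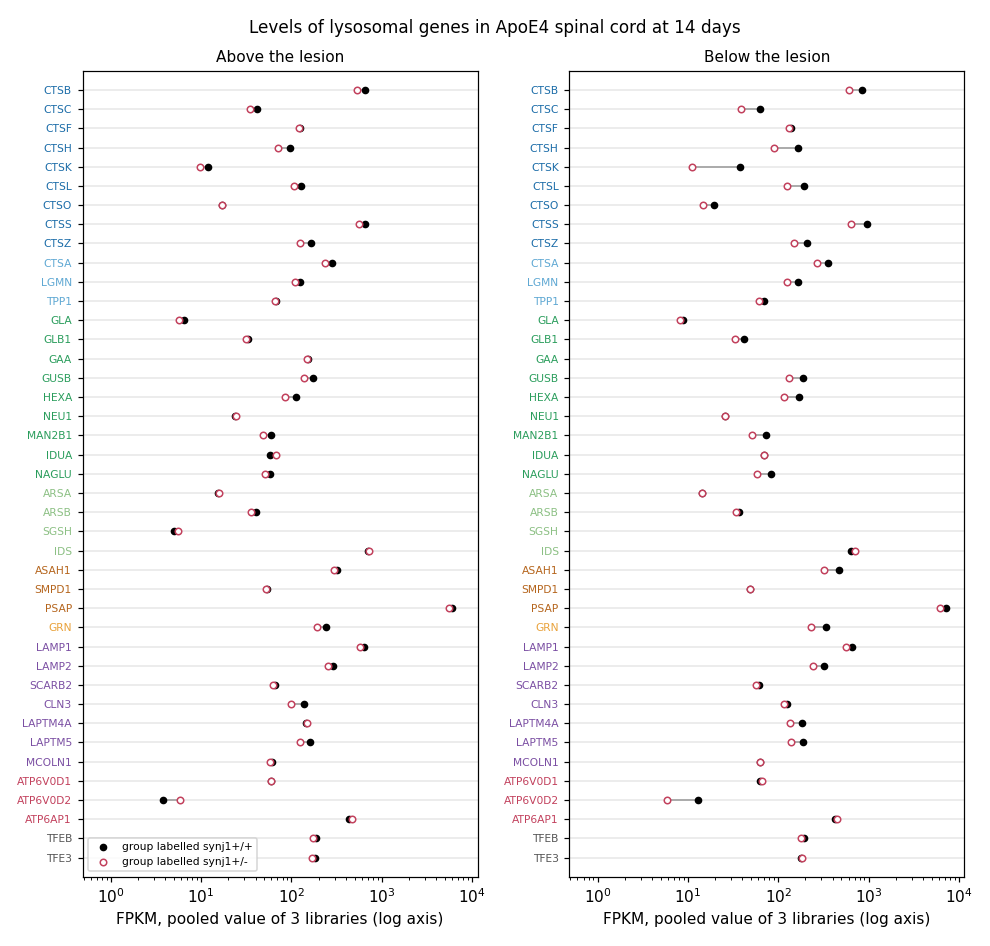
FPKM (log axis) of each lysosomal gene in the (synj1+/+)-labelled group (filled) and the (synj1+/-)-labelled group (open), above (left) and below the lesion (right); each point pools 3 libraries and has no error bar. Levels span from 3.79 FPKM for ATP6V0D2 above the lesion to 7257 for PSAP below it, and the widest gaps between genotypes are those of CTSK and ATP6V0D2 below.

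Glycosidases remove sugars from glycoproteins, glycolipids and glycosaminoglycans. Among these members, 3 of 9 were lower above the lesion and 5 of 8 below, beside 10.5% and 14.9% of all genes. HEXA (chromosome 9 from 59539540 to 59565109), the alpha subunit of the hexosaminidase that degrades ganglioside, had 113 FPKM in the (synj1+/+)-labelled group and 85.1 in the (synj1+/-)-labelled group above, and 169.7 and 116 below. Its log2 ratios were -0.41 and -0.54. GUSB, the beta-glucuronidase, had 172 and 137 FPKM above and 189 and 132 below, with ratios of -0.33 and -0.52. Both genes were lower at each site. MAN2B1, the alpha-mannosidase, had 59.4 and 48.1 FPKM above and 73.3 and 50.9 below, at ratios of -0.30 and -0.52. NAGLU, an enzyme of heparan sulfate breakdown, had 58.5 and 50.4 FPKM above and 84.1 and 58.6 below, at -0.21 and -0.52. GLB1, the beta-galactosidase, was at -0.050 above and -0.34 below, with 41.8 and 32.8 FPKM below.

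The other glycosidases stayed within the limit wherever they were listed. GLA, the alpha-galactosidase lacking in Fabry disease, was the least abundant at 5.64 to 8.79 FPKM, with log2 ratios of -0.17 and -0.10. NEU1, the sialidase, had 23.7 to 25.7 FPKM in all 4 groups and ratios of 0.028 and 0.010. IDUA, the iduronidase, was the member nearest to the limit on the higher side above the lesion, with 57.5 and 68.1 FPKM and a ratio of 0.24, and had 69.9 and 69.0 FPKM below. GAA, the glycogen-degrading alpha-glucosidase, had 154 and 149 FPKM above.

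None of the sulfatases, which remove sulfate groups from glycosaminoglycans and sulfatide, passed the limit at either site. IDS, the iduronate sulfatase, was among the most abundant members, with 701 and 729 FPKM above and 635 and 703 below, and its log2 ratios were 0.057 and 0.15. ARSA, the arylsulfatase that degrades the myelin lipid sulfatide, had 14.3 to 15.6 FPKM in all 4 groups. ARSB had ratios of -0.16 and -0.081, and SGSH had 5.06 and 5.56 FPKM above.

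Of the genes of sphingolipid breakdown, ASAH1 differed between the sites. ASAH1 (chromosome 8 from 41340197 to 41374773), the acid ceramidase, had 316 and 299 FPKM above the lesion and 472 and 318 below, with log2 ratios of -0.077 and -0.57. The (synj1+/+)-labelled group below the lesion was the high one, and the other 3 groups lay between 299 and 318 FPKM. PSAP, the precursor of the saposins that present lipids to their hydrolases, was the most abundant member, with 6026 and 5575 FPKM above and 7257 and 6159 below. Its ratios of -0.11 and -0.24 lay within the limit. SMPD1, the acid sphingomyelinase, had 48.4 to 53.4 FPKM in all 4 groups. GRN (chromosome 11 from 102430315 to 102437048), which encodes progranulin, a secreted glycoprotein processed in lysosomes and abundant in microglia, had 239 and 189.9 FPKM above and 339 and 232 below. It was lower at both sites, at -0.33 and -0.54.

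The membrane proteins were divided. LAMP1 and LAMP2, the main glycoproteins of the lysosomal membrane, had log2 ratios of -0.15 and -0.18 above the lesion and -0.22 and -0.42 below. LAMP2 was called lower below, with 323 and 242 FPKM, while LAMP1, with 661 and 568 FPKM there, was not. LAPTM5, a lysosomal membrane protein of immune cells, microglia among them, was lower at both sites. It had 159.8 and 124 FPKM above (-0.36) and 187 and 137 below (-0.45). Its relative LAPTM4A, which most cells express, had 146 and 149 FPKM above (0.030) and 181 and 135 below (-0.42). LAPTM5 thus differed by genotype at each site and LAPTM4A below the lesion.

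CLN3 (chromosome 7 from 126571207 to 126585817), the membrane protein mutated in juvenile Batten disease, showed the reverse order of sites. It had 138 and 98.5 FPKM above the lesion, the lowest log2 ratio of the members there at -0.48, and 124 and 117 FPKM below, a ratio of -0.075. The groups labelled synj1+/+ and synj1+/- were thus apart above and close together below. Of the exon bases of CLN3, 13.2% lie on the opposite strand of APOBR, a macrophage receptor gene with 9.62 and 7.63 FPKM above and 14.4 and 10.7 below, and reads of the 2 genes cannot be told apart there. SCARB2, the receptor that carries glucocerebrosidase to lysosomes, was within the limit at -0.062 and -0.095, as was MCOLN1, the calcium channel TRPML1, at -0.062 and 0.0026.

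Among the members, the proton pump genes and the transcription factors differed little by genotype, with 1 exception. Other pump subunits are given further below. ATP6V0D1, the d subunit of most tissues, had 59.6 to 66.8 FPKM, and ATP6AP1, an accessory subunit, had 430.2 to 466 FPKM, with log2 ratios between 0.0017 and 0.089 for both genes and sites. ATP6V0D2, the d subunit of osteoclasts and macrophages, had 3.79 and 5.85 FPKM above the lesion and 13.1 and 5.90 below. Its log2 ratios were 0.52 and -1.03, opposite in sign. At this low level the call above was lost when 10 more was added to each value. TFEB had 175 to 192 FPKM and TFE3 169 to 184 FPKM in the 4 groups, with ratios from -0.11 to 0.043.

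The genotype ratios were also set beside the promoter E-box. Of members with an entry that holds CACGTG, 1 of 14 was lower above the lesion (CLN3) and 5 of 12 below, with median log2 ratios of -0.11 and -0.16. Of members whose entries lack it, 7 of 23 were lower above and 12 of 23 below, with medians of -0.11 and -0.36. Of all genes, 10.5% were lower above and 14.9% below. Of the members with copies shown above, LAMP1, GLA, MCOLN1 and CTSF were within the limit at both sites. CLN3 was called lower only above the lesion, and CTSA, CTSL, LGMN, NAGLU and GLB1 were called lower only below it. CTSS, without a copy in the stretch shown, was also called lower only below. These counts are descriptions of the letters in a short window and were not tested.

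Other genes of the lysosome were listed apart from the members. Of 41 such genes listed above the lesion 5 (12.2%) were lower, near the 10.5% of all genes, and 0 higher. Of 38 listed below 10 (26.3%) were lower, against 14.9% of all genes, and 0 higher. The median log2 ratios were -0.059 above and -0.063 below. The hydrolases and their cofactors had medians of -0.12 above and -0.25 below, with 6 of 13 lower below. Among them, LIPA, the acid lipase that hydrolyses cholesteryl esters, was at -0.043 above and -0.47 below.

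Of the other proton pump subunits, 1 of 14 (7.14%) was lower above and 2 of 13 (15.4%) below, close to the 10.5% and 14.9% of all genes. Their medians were 0.089 and 0.018. TCIRG1, the a3 subunit typical of osteoclasts and macrophages, was lower at both sites at -0.30 and -0.38, and ATP6V0E was lower below at -0.62. Among other membrane and cargo proteins, CD68, a macrophage sialoprotein, had 138 and 96.8 FPKM above and 199 and 115 below, and CD63, a tetraspanin, had 388 and 314 above and 494 and 337 below. Their log2 ratios were -0.50 and -0.79 for CD68 and -0.31 and -0.55 for CD63. None of the sorting genes M6PR, IGF2R, SORT1, GNPTAB and GNPTG, which route hydrolases to the lysosome, passed the limit where listed.

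Markers of microglia and macrophages moved with the lysosomal genes at both sites. Above the lesion 11 of 16 markers were lower, and below it 13 of 13 listed, beside 10.5% and 14.9% of all genes. The median log2 ratios of these markers were -0.42 and -0.65. Their summed FPKM was 2938 in the (synj1+/+)-labelled group and 2065 in the (synj1+/-)-labelled group above, and 3472 and 2235 below. CD68 in that list is itself a lysosomal protein. In whole tissue, fewer cells of a type and less RNA per cell cannot be told apart, and the part of these cells in the lysosomal values was not tested. Markers of neurons were in the opposite direction below, with a median of 0.19 and 2 of 8 higher, beside 12.6% of all genes. Astrocyte markers had medians of -0.26 above and -0.18 below. Red cell markers were higher at both sites, 5 of 5, beside 6.62% of all genes above and 12.6% below. Their summed FPKM was 248 and 1133 above and 629 and 825 below, and their part in the lysosomal values was not tested either.

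Members known to be enriched in microglia (CTSS, CTSC, CTSZ, LGMN, LAPTM5 and GRN) were set apart from the rest. Of these 6, 3 were lower above the lesion and 6 below, with medians of -0.30 and -0.50. Of the other members, 7 of 35 (20%) were lower above and 15 of 33 (45.5%) below, beside 10.5% and 14.9% of all genes. Their medians were -0.077 and -0.22, so that leaving out those 6 genes moved the median below from -0.36 to -0.22. The other members still include genes of macrophages, such as ATP6V0D2. Setting 6 genes apart therefore does not take out the part of microglia and macrophages, which was not tested.

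**Figure D3:**
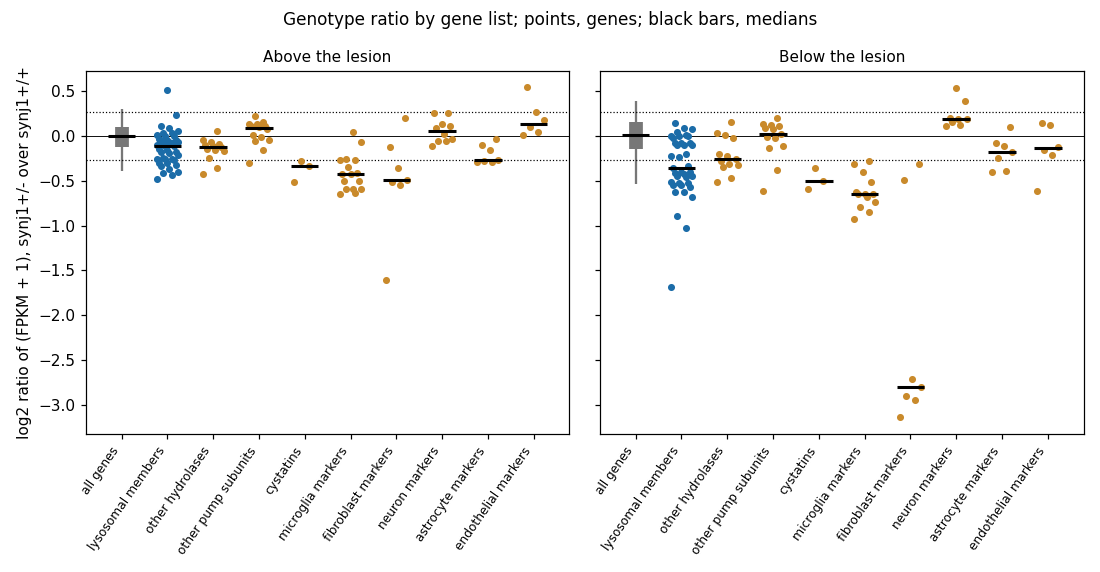
Log2 ratio of FPKM plus 1, (synj1+/-)-labelled group over (synj1+/+)-labelled group, for lysosomal members, other lysosomal genes and cell type markers, above (left) and below the lesion (right). Each point is a gene and each black bar a median; for all genes, the grey line spans percentiles 5 to 95 and the box 25 to 75. The members' median is -0.11 above and -0.36 below, between that of all genes and that of the microglia markers, at -0.42 and -0.65.

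The sites were then compared within each genotype. The reads of each site were reduced to a separate number and may have been normalized separately, so these ratios are less secure than those within a site; the median log2 ratio of all 12023 genes compared was -0.00083 in the (synj1+/+)-labelled group and 0.022 in the (synj1+/-)-labelled group. In the (synj1+/+)-labelled group, 20 of 39 members (51.3%) were higher below the lesion than above by 1.2-fold or more, against 13.7% of all genes, and 0 were lower, against 11.5%. In the (synj1+/-)-labelled group, 5 of 39 (12.8%) were higher below, against 9.91%, and 0 were lower, against 6.93%. The median log2 ratio, below over above, was 0.27 for synj1+/+ and 0.12 for synj1+/-. The 8 of 39 members below 0 in the (synj1+/+)-labelled group included all 3 sulfatases listed at both sites, CLN3 and TFE3.

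Among single genes, the gap between sites differed most for CTSK and ATP6V0D2. The log2 ratio of below over above was 1.59 for CTSK in the (synj1+/+)-labelled group and 0.17 in the (synj1+/-)-labelled group. For ATP6V0D2 it was 1.56 and 0.0091, for CTSH 0.80 and 0.34, and for ASAH1 0.58 and 0.085. In these 4 genes the (synj1+/+)-labelled group was the one with the wider gap between sites. HEXA had 0.58 and 0.44, and GLA 0.39 and 0.46. CLN3 had -0.15 and 0.25, of opposite sign. Microglia and macrophage markers again moved with the members, with medians of 0.53 and 0.25, and the medians of fibroblast markers were 3.09 and 0.67. Their part in these ratios was not tested.

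**Figure D4:**
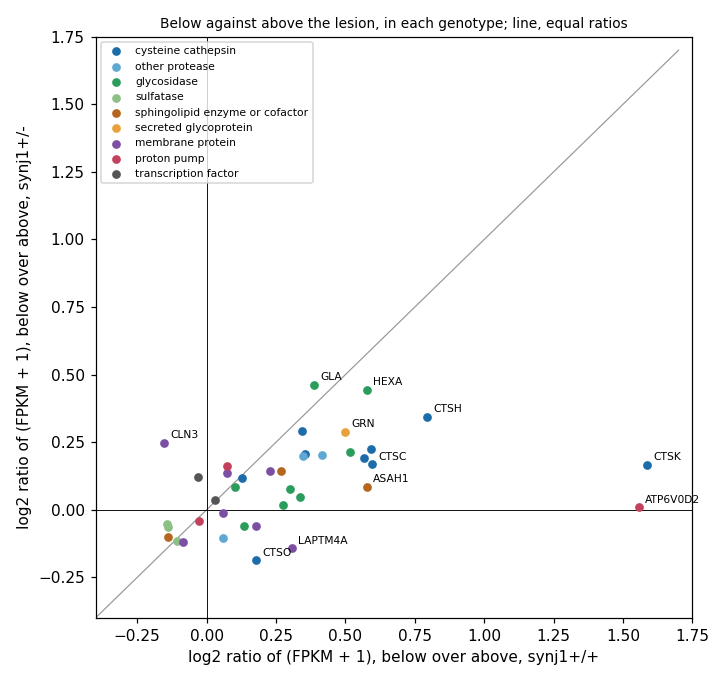
Log2 ratio of FPKM plus 1, below over above the lesion, for each lysosomal gene listed at both sites, in the (synj1+/+)-labelled group (horizontal axis) and in the (synj1+/-)-labelled group (vertical axis); the diagonal marks equal ratios. Most points lie under the diagonal, with CTSK at 1.59 and 0.17 and ATP6V0D2 at 1.56 and 0.0091 farthest from it, and CLN3 lies over it.

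The genotype ratio below minus that above was below 0 for 30 of 39 members (76.9%), against 46.1% of all genes, with a median of -0.15 against 0.022. It equals the log2 ratio of below over above in the (synj1+/-)-labelled group minus that in the (synj1+/+)-labelled group. It is therefore the contrast of the site comparison in another form, not a separate result. The cysteine cathepsins had 9 of 9 such differences below 0 (median -0.37), and TFEB and TFE3 had 0 of 2. The lowest values were -1.55 for ATP6V0D2, -1.42 for CTSK, -0.49 for ASAH1, -0.45 for CTSH and -0.45 for LAPTM4A, and the highest was 0.40 for CLN3. Whether these differences between the sites exceed the variation between libraries could not be tested with pooled values, and the labels do not say whether the segments above and below came from the same mice. The study lists as many animals per genotype for RNA-seq as there are libraries per group here, so the 2 sites may share mice. It does not state which libraries belong together.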

How the data were processed

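RNA-seq libraries of spinal cord segments, 3 per group, were grouped by genotype and site from their labels. In the authors' processing, reads were reduced at random to the smallest library of each site, aligned with STAR 2.5.4b to GRCm38.p6 and summarized with Cuffdiff 1.3.0 (per the submitters' processing notes) with normalization to the upper quartile. From the authors, the deposited table has 1 pooled FPKM value per group and gene. The lowest of these values is exactly 1, and they were therefore taken as FPKM plus 1. The table holds 0 columns of single samples, so from the pooled values no SD, no test and no result without a replicate could be computed. The library kit, as the study's methods name it, does not keep strand. The table's fold changes, p-values and q-values, and the shorter list of genes at low p, are the authors' comparisons and were not used.

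Log2 ratios of the deposited values were computed within each site, and between sites for symbols with 1 row per site. A ratio of 1.2-fold or more was called lower or higher, and shares were set beside those of all genes listed. The named genes are all members listed, by role, with SYNJ1, fixed lists of other lysosomal genes and cell type markers, and the overlapping genes APOBR, FDFT1, PLTP and NEURL2, added after their values were seen. Members and lists were chosen with earlier results of these data known. Positions and exon overlaps come from GENCODE M21 (GRCm38), and promoters from RefSeq. Python 3.11.15, numpy 2.4.6, pandas 2.3.3 and matplotlib 3.10.9 were used. The code for ratios and calls was run on values with set ratios and no noise, which checks the code only. Single values of a few listed genes are not reported here.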

Additional observations from a re-analysis of the deposited data

How the results depend on the processing

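No result without a replicate could be computed, because the libraries of each group are pooled, and no paired analysis was possible because the values carry no replicate numbers. With no replicate error, a median or count was taken as stable where it stayed within 1.5 times its value and kept its sign, and no median and no gene past the limit changed sign under any alternative run. Of the 76 other values of the medians and counts, 65 were stable, but some of these could not change. A filter of 1 FPKM or more removed no member. Keeping only members listed at both sites could change only the values above the lesion. With 10 more added to each value or with genes of 10 FPKM or more, the number of members higher above the lesion went from 1 to 0. Without the microglia-enriched members, the median log2 ratio below moved to -0.22 and the medians of below over above to 0.18 for synj1+/+ and 0.078 for synj1+/-. At a limit of 1.1-fold, 20 members were lower and 2 higher above the lesion, and 24 were lower and 1 higher below it. At 1.5-fold, 0 were lower and 0 higher above, and 6 were lower and 0 higher below. A count thus depends on the limit, and counts near it rest on pooled values of unknown error. The shares of all genes at 1.1-fold and 1.5-fold were not computed, so these counts have no baseline. For all genes, percentiles 25 and 75 of the log2 ratio were -0.12 and 0.10 above, and -0.15 and 0.16 below.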

Other observations

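The cystatins, inhibitors of cysteine cathepsins, were lower in the (synj1+/-)-labelled group at both sites. CST3, the abundant secreted inhibitor cystatin C, had 1164 FPKM in the (synj1+/+)-labelled group and 962 in the (synj1+/-)-labelled group above the lesion, and 1449.6 and 1131 below, with log2 ratios of -0.27 and -0.36. CSTB, the cytosolic cystatin B, had 64.1 and 50.5 FPKM above and 85.5 and 60.2 below, at -0.34 and -0.50. CST7, a cystatin of immune cells that activated microglia express, had 30.8 and 21.3 FPKM above and 43.8 and 28.7 below, at -0.52 and -0.59. All 3 were past the 1.2-fold limit at both sites, where 10.5% of all genes were lower above and 14.9% below.

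Exons of 7 of the 42 members share over 10% of their bases with a gene on the opposite strand in the GENCODE annotation: ARSA, ARSB, CLN3, CTSA, CTSB, CTSL and SGSH. Without strand, reads from such stretches cannot be assigned to 1 gene. For CTSB the partner FDFT1, an enzyme of cholesterol synthesis, had 118 and 121 FPKM above and 112 and 117 below, and for CTSA the partners PLTP and NEURL2 had log2 ratios of -0.057 and -0.21 above and -0.15 and 0.11 below.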
